A study of Mus musculus with 6 samples.

Results

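General capillary (gCAP) endothelial cells form the plain capillary wall of the alveolus, and those described here were the gCAP cells that carry *Kit*, *Sema3c*, *Npr3*, *Glp1r*, *Hmcn1*, and *Scn7a*, called the *Kit* set below. A cell barcode counted as a member when it detected at least 3 of 5 endothelial genes, at least 2 more genes of the *Kit* set than of an opposing set of 6 genes (*Lxn*, *Gna14*, *Grrp1*, *Bik*, *Dnah8*, and *Car14*), and few or none of the genes that mark aerocytes, arterial, venous, or cycling cells, or *Prnd*. Of 43545 barcodes in 6 libraries, 38208 passed the limits on genes and mitochondrial RNA, 31669 were endothelial, 19011 were capillary after the exclusions, and 13235 were members. The members were thus chosen by the detected UMIs of these genes, which in the members are described and not tested.

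The libraries came from droplet-based single-cell RNA sequencing of viable lung cells sorted as CD45- and CD326-, that is, with leukocytes and epithelial cells removed. One genotype was the TNF-Tg mouse, which overexpresses TNF from a transgene and develops arthritis and a pulmonary vasculopathy, and the other was the WT littermate. Sampling was at ages of 8, 14, and 20 weeks. Each genotype and age gave 1 library, for which lungs of female mice were pooled. A genotype therefore had 3 libraries that differed in age, single mice of a pool could not be told apart, and any effect of age adds to the spread within a genotype. The transgene is carried in all cells of the mouse, so that effects on the endothelium and on other tissues cannot be told apart.

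The lung capillary has 2 endothelial cell types. Aerocytes (aCAP) take part in gas exchange, and gCAP cells regulate tone, handle lipids, and serve as the source of new capillary cells. KIT is the receptor for stem cell factor, GLP1R is the receptor for glucagon-like peptide 1, NPR3 clears natriuretic peptides, SEMA3C is a secreted guidance cue that signals through neuropilins and plexins, HMCN1 is an extracellular matrix protein, and SCN7A is a sodium channel.

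The WT libraries gave 3074, 3161, and 3778 members at 8, 14, and 20 weeks, and the TNF-Tg libraries gave 1730, 984, and 508. Their summed unique molecular identifiers (UMIs), which count captured RNA molecules, were 14180927, 13966391, and 17114945 in WT and 13072980, 7526300, and 4204192 in TNF-Tg. The median member held 4134, 3941, and 3950 UMIs in WT and 7177, 7267.5, and 7865.5 UMIs in TNF-Tg, so that members of TNF-Tg lungs held more UMIs per cell. Levels are given below as counts per 1000000 UMIs (CPM) summed over the members of a library, always in the order of 8, 14, and 20 weeks. Changes between genotypes are log2 fold changes of TNF-Tg over WT. A higher level may reflect more cells with the gene or more of its RNA per cell.

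The label of the members was checked against genes that the choice did not use. *Gpihbp1*, which anchors lipoprotein lipase on capillaries, was at 1272, 1266, and 1361 CPM in WT, against 733, 476, and 363 CPM in TNF-Tg, and *Plvap*, which forms the diaphragms of endothelial vesicles, was at 1218, 1331, and 1332 CPM in WT, against 362, 194, and 218 CPM in TNF-Tg. Of 13235 members, 10 detected 2 or more of the lymphatic genes *Prox1*, *Mmrn1*, *Reln*, and *Ccl21a*. *Gpihbp1* and *Plvap* were lower in each TNF-Tg library than in any WT library. Of 14 general capillary genes outside the rule, 11 fell (edgeR FDR under 0.05, against 12.9% of all genes tested). The name of general capillary endothelium is therefore less well borne out in TNF-Tg than in WT members. Of 6 aerocyte markers outside the rule, 2 rose and 2 fell, against 13.4% and 12.9% of all genes. No separate population marked by the opposing set was seen. The difference between the detected genes of both sets had a single peak in each library, at 3 genes in every WT library, at 2 in TNF-Tg at 8 and 14 weeks, and at 1 in TNF-Tg at 20 weeks, with no gap at the limit of 2. The mirrored rule, with at least 2 more genes of the opposing set, found only 199 barcodes, between 17 and 65 per library, and 33 of these carried 2 or more lymphatic genes. Since barcodes were sorted by how many of the same genes they detected, a step in their level at the limit is built in, and the next values only describe it. In the first WT library, *Glp1r* was at 645 CPM in the 512 barcodes just outside the limit and at 708 CPM in the 796 just inside it, and *Kit* was at 439.6 and 527 CPM. In the 14-week TNF-Tg library the step was wider for some genes, with *Glp1r* at 74.4 CPM in the 432 barcodes just outside and 120.3 CPM in the 471 just inside, and *Npr3* at 12.4 and 54.99 CPM. In the 20-week TNF-Tg library, *Glp1r* was at 48.9 CPM in 286 barcodes outside and 75.6 CPM in 256 inside, and *Npr3* at 32.1 and 61.5 CPM.

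The genotype labels were checked with mouse *Tnf*, since the human transgene is not among the genes listed. All barcodes together held 22, 11, and 16 *Tnf* UMIs in WT and 177, 266, and 426 in TNF-Tg. Members held 2, 3, and 4 *Tnf* UMIs in WT and 28, 47, and 24 in TNF-Tg. The genotypes did not overlap in either count. Reads of the transgene that map to the mouse gene cannot be told apart from those of the mouse gene itself.

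**Figure D1:**
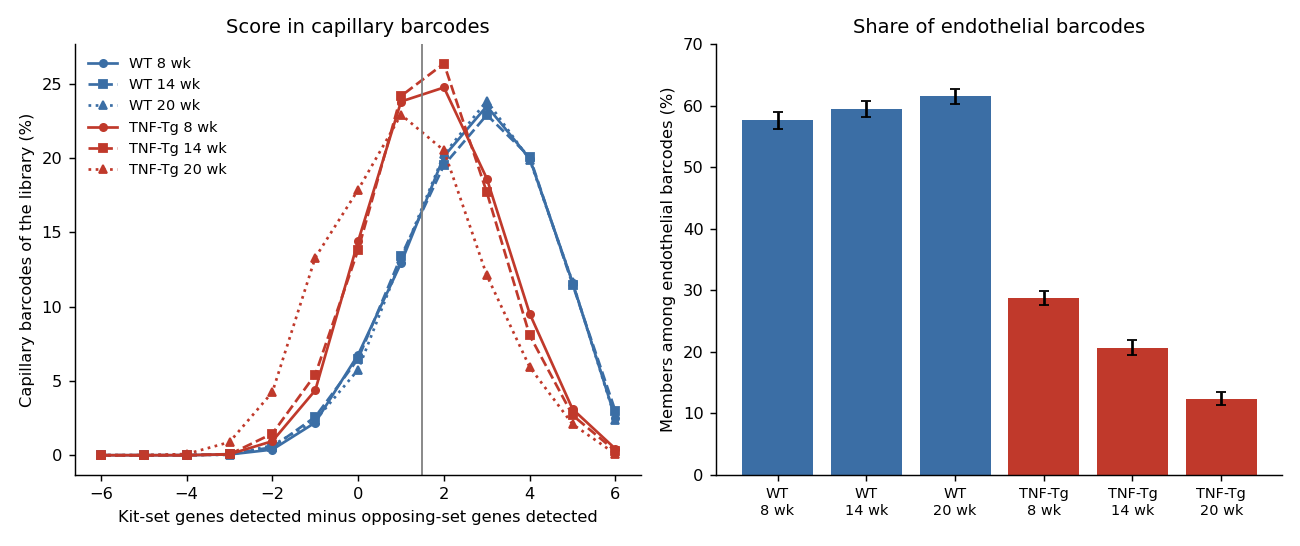
Left, the number of *Kit*-set genes detected minus the number of opposing-set genes detected (x axis) against the percent of capillary barcodes of each library (y axis), with the limit for members as a grey line; right, members as a percent of endothelial barcodes per library, with exact 95% intervals that cover counting error only. The TNF-Tg curves lie to the left of the WT curves, and the shares are 57.6% to 61.5% in WT and 12.4% to 28.8% in TNF-Tg.

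Members made up a smaller share of the endothelium in TNF-Tg lungs, and the share was lower at each later age. In WT, 57.6%, 59.5%, and 61.5% of endothelial barcodes were members. In TNF-Tg, 28.8%, 20.7%, and 12.4% were, with an exact Clopper-Pearson 95% interval of 11.4% to 13.4% at 20 weeks. The rule reads genes that themselves differed between genotypes, so the shares are descriptive. Of capillary barcodes alone, members were 77.7%, 76.9%, and 78.0% in WT and 56.4%, 55.1%, and 40.7% in TNF-Tg. With every cell thinned to 1000 UMIs before the choice, the mean share of the endothelium was 55.9% ± 2.01 (SD, n = 3) in WT and 34.4% ± 13.6 in TNF-Tg. The exclusion of cells with *Prnd*, which encodes a prion-like protein, bore mainly on TNF-Tg, where the libraries would otherwise have held 2162, 1519, and 848 members, against 3074, 3161, and 3779 in WT. In TNF-Tg, 23.2%, 39.9%, and 46.2% of endothelial barcodes had at least 2 *Prnd* UMIs, against 0.0749%, 0.0376%, and 0.179% in WT. Without that exclusion the mean shares were 59.5% in WT and 29.5% in TNF-Tg.

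The genes of the *Kit* set were measured in cells chosen without them, that is, each gene in barcodes that met the rule with the other 5. *Npr3* was the only one of the 6 that passed the test without age as a block, and with age as a block *Glp1r* and *Hmcn1* passed too. *Npr3* (chr15:11839896-11907287, minus strand, GRCm38) was at 171, 318, and 189 CPM in WT, against 58.3, 53.4, and 77.9 CPM in TNF-Tg. Its log2 fold change was -1.88 ± 0.26 (SE), edgeR FDR = 0.00195, where 26.2% of all genes in that fit were called in either direction, and it was lower in every TNF-Tg library than in any WT library.

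*Glp1r* (chr17:30901817-30940791, plus strand) was at 792, 868, and 782 CPM in WT, against 565, 132, and 72.2 CPM in TNF-Tg. Every TNF-Tg library lay below every WT library, and the level at 20 weeks was 0.0922 times that of WT. The test over the genotypes did not pass, with a log2 fold change of -1.72 ± 0.63 (SE), edgeR FDR = 0.0807, where 25.7% of all genes in that fit were called. With age as a block it passed, at -2.26 with edgeR FDR = 0.0402. Without the 8-week TNF-Tg library the log2 fold change was -3.003 and edgeR FDR = 5.51e-05. In capillary barcodes thinned to 1000 UMIs, without regard to either set, *Glp1r* was detected in 48.3%, 51.2%, and 46.2% of WT cells and in 36.8%, 9.52%, and 5.55% of TNF-Tg cells. Barcodes with no endothelial gene at the same depth detected it in at most 1.79% of cells in any library.

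*Hmcn1* (chr1:150562524-150993435, minus strand) was at 829, 588, and 619.8 CPM in WT, against 585, 233, and 138 CPM in TNF-Tg, again with no overlap, and its log2 fold change of -1.14 ± 0.44 (SE), edgeR FDR = 0.0931, did not pass the test. It passed with age as a block, at -1.36 with edgeR FDR = 0.0174, and without the 8-week TNF-Tg library, at -1.89 with edgeR FDR = 0.000536. The libraries of both genotypes overlapped for the other genes of the set. *Kit* (chr5:75574916-75656722, plus strand) was at 619, 664, and 645 CPM in WT, against 853, 442, and 394 CPM in TNF-Tg, with a log2 fold change of -0.24 ± 0.24 (SE), edgeR FDR = 0.545. In TNF-Tg it stood above WT at 8 weeks and below it at both later ages, and without the 8-week TNF-Tg library its log2 fold change was -0.63 with edgeR FDR = 0.00171. *Sema3c* (chr5:17574281-17730268, plus strand) was at 2127, 1538, and 1903 CPM in WT, against 1814, 1978, and 1617 CPM in TNF-Tg, with a log2 fold change of -0.07 ± 0.13 (SE), edgeR FDR = 0.763 (21.4% of genes called in that fit), which changed sign to 0.047 without the 8-week WT library. *Scn7a* (chr2:66673425-66784914, minus strand) was at 1212, 755, and 1157 CPM in WT, against 2657, 1696, and 1062 CPM in TNF-Tg, with a log2 fold change of 0.75 ± 0.29 (SE), edgeR FDR = 0.105, and without the 20-week TNF-Tg library it was 1.01 with edgeR FDR = 0.0249. The *Kit* set therefore did not move as one, with *Npr3*, *Glp1r*, and *Hmcn1* lower in each TNF-Tg library and *Kit*, *Sema3c*, and *Scn7a* overlapping. For *Glp1r*, *Hmcn1*, *Kit*, and *Scn7a*, the library left out was the TNF-Tg library that went least with the change. Those calls therefore only describe the weight of that library, and the ranges over all single libraries are given below.

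**Figure D2:**
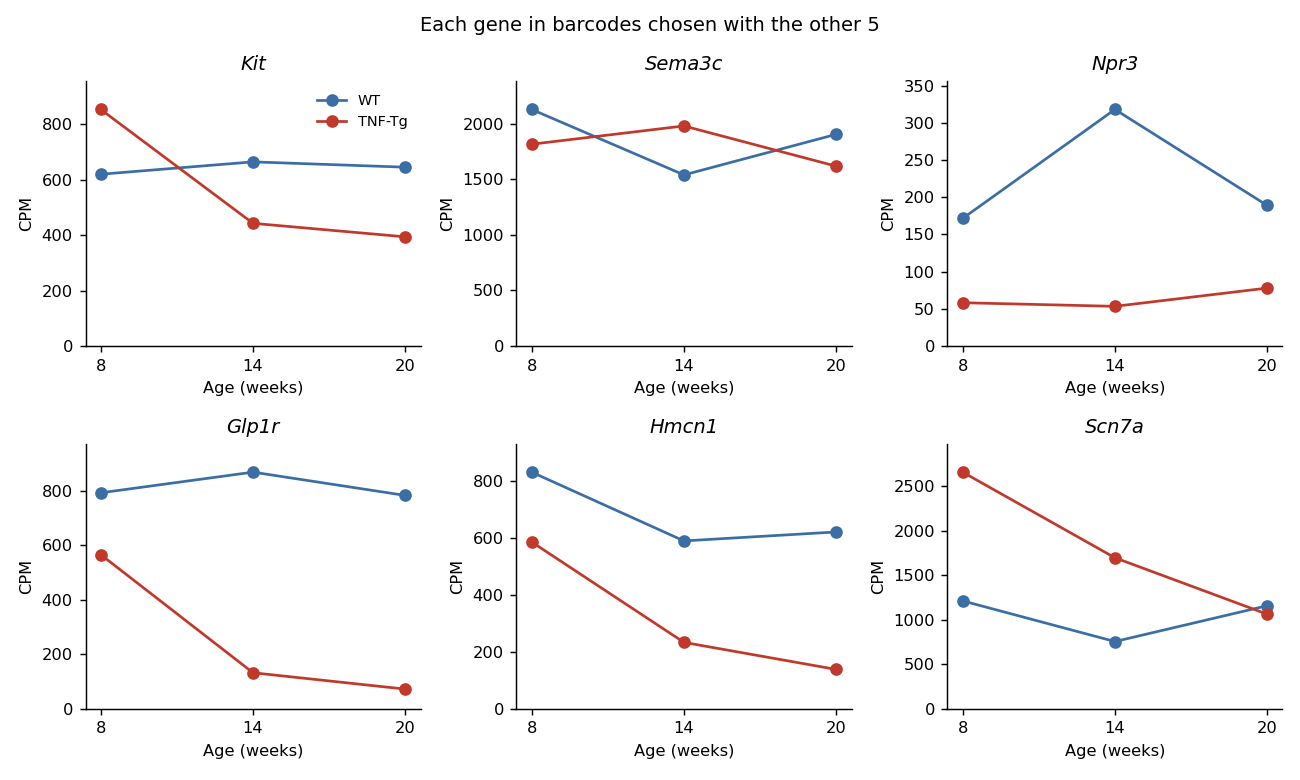
CPM (y axes, from 0) of each *Kit*-set gene by age in weeks (x axes) in barcodes chosen with the other 5 genes of the set, with WT in blue and TNF-Tg in red and 1 library per point. *Glp1r* and *Hmcn1* in TNF-Tg are lower at each later age, while *Kit* and *Scn7a* in TNF-Tg start above WT and *Sema3c* of both genotypes overlaps.

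Gene expression within members was compared between genotypes over libraries, with UMIs summed per library. Of 12783 genes tested, 3360 differed at an edgeR FDR under 0.05, which is 26.3%, with 1717 higher in TNF-Tg (13.4%) and 1643 lower (12.9%). Fewer were called with cells thinned to 1000 UMIs, at 2080 genes, and leaving out single libraries gave 1831 genes without the WT library of 14 weeks to 4158 without the TNF-Tg library of 8 weeks. Without the *Prnd* exclusion, which bore mainly on TNF-Tg, 4353 genes were called, and over all capillary barcodes 3814. The libraries of both genotypes did not overlap for 44.2% of the genes tested, with 23.5% higher and 20.7% lower in TNF-Tg. Leaving out the genes that the choice of members used, 1711 rose and 1636 fell among 12750 genes, with a median log2 fold change of -0.01.

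*Hspg2* (chr4:137468769-137570630, plus strand), which encodes the basement membrane proteoglycan perlecan, was at 11.001, 5.44, and 5.43 CPM in WT, against 132, 257, and 318 CPM in TNF-Tg. It had the largest rise under the rule for naming genes, with a log2 fold change of 4.99 ± 0.43 (SE), edgeR FDR = 0.000377. *Bmp2* (chr2:133552159-133562885, plus strand), a bone morphogenetic protein, was at 4.795, 1.29, and 1.69 CPM in WT, against 48.5, 61.5, and 62.6 CPM in TNF-Tg and rose by 4.45 ± 0.40 (SE), edgeR FDR = 0.000404, on the log2 scale. No TNF-Tg library came near a WT library for either gene. *Sema5a*, a membrane-bound semaphorin, was at 8.39, 9.24, and 6.54 CPM in WT, against 128, 229.6, and 159 CPM in TNF-Tg and rose by 4.395 ± 0.26 (SE), edgeR FDR = 9.02e-05. *Atp13a3*, a P-type ATPase that transports polyamines, was at 41.4, 44.1, and 41.7 CPM in WT, against 378, 962, and 925 CPM in TNF-Tg and rose by 4.13 ± 0.36 (SE), edgeR FDR = 0.000382. *Rgcc*, a regulator of the cell cycle, was at 41.5, 21.3, and 27.9 CPM in WT, against 244, 529, and 652 CPM in TNF-Tg and rose by 3.95 ± 0.42 (SE), edgeR FDR = 0.0008101, so that it was low in every WT library and abundant in every TNF-Tg library. *Meox1*, a homeobox transcription factor, rose by 3.91 and *Ccdc184* by 4.86, with edgeR FDR = 0.000186 and 0.000395. *Mal*, a lipid raft protein, was at 1.76, 0.859, and 4.62 CPM in WT, against 8.34, 96.2, and 139 CPM in TNF-Tg, and *Cdh13*, which encodes T-cadherin, was at 2.19, 1.58, and 2.63 CPM in WT, against 9.49, 66.97, and 127 CPM in TNF-Tg. Both were highest in TNF-Tg at 20 weeks and far lower in TNF-Tg at 8 weeks, with edgeR FDR = 0.0106 and 0.00662. Without the 14-week WT library, *Mal* no longer passed.

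The largest fall was that of *Lyve1* (chr7:110850607-110863239, minus strand), a hyaluronan receptor better known from lymphatic vessels, which was at 435, 663, and 495 CPM in WT, against 49.5, 8.64, and 25.9 CPM in TNF-Tg and changed by -4.25 ± 0.53 (SE), edgeR FDR = 0.00147. *Vwf* (chr6:125546774-125686679, plus strand), which encodes von Willebrand factor, was at 321, 424, and 371 CPM in WT, against 31.9, 36.5, and 29.5 CPM in TNF-Tg and changed by -3.53 ± 0.14 (SE), edgeR FDR = 4.54e-05. The 3 TNF-Tg libraries lay close together for *Vwf* and were already as low at 8 weeks as later. *Cyp4b1*, a cytochrome P450 of the lung, was at 488, 765, and 658 CPM in WT, against 67.3, 47.6, and 51.9 CPM in TNF-Tg and changed by -3.54 ± 0.20 (SE), edgeR FDR = 8.13e-05. *Fmo2*, a flavin monooxygenase of the lung, was at 214, 386, and 267 CPM in WT, against 39.9, 28.04, and 19.98 CPM in TNF-Tg and changed by -3.304 ± 0.29 (SE), edgeR FDR = 0.000382. *Slc16a9*, of the monocarboxylate transporter family, was at 139, 225, and 199 CPM in WT, against 15.9, 5.18, and 7.14 CPM in TNF-Tg and changed by -4.25 ± 0.37 (SE), edgeR FDR = 0.000382. *Gata3*, a zinc finger transcription factor, changed by -3.35, *Samd5* by -3.59, *Pxdc1* by -2.87, and *Lepr*, the leptin receptor, by -2.87, with edgeR FDR = 0.000268, 0.000959, 6.48e-05, and 0.00276. *Inmt*, a methyltransferase that is also a marker of lung fibroblasts, changed by -3.35 ± 0.55 (SE), edgeR FDR = 0.00436. *Inmt* is on the list of mesenchymal markers, and *Lyve1* on that of lymphatic markers, whose levels are given below.

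**Figure D3:**
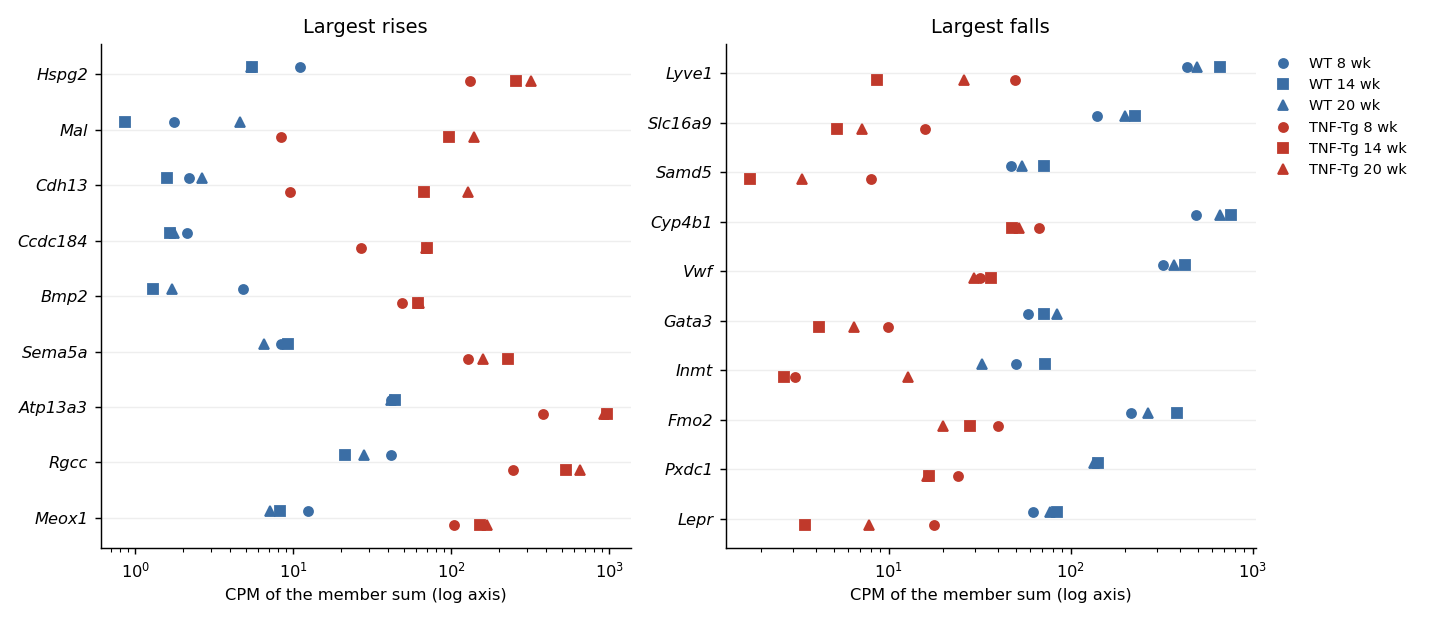
CPM of the member sums (log x axes) for 9 of the 10 largest rises and the 10 largest falls under the rule for naming genes, 1 point per library, with WT in blue, TNF-Tg in red, and circles, squares, and triangles for 8, 14, and 20 weeks. No WT point overlaps a TNF-Tg point for any of these genes, which the rule required, and *Mal* and *Cdh13* in TNF-Tg spread most with age.

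Other genes of general capillary identity fell. Of 14 such genes outside the rule, 11 fell and none rose, against 12.9% and 13.4% of all genes tested, and the median log2 fold change was -1.35 against -0.01 over all genes. The counts of the lists below stand against the same shares of all genes. *Plvap* changed by -2.36 ± 0.21 (SE), edgeR FDR = 0.000434. *Ptprb*, a vascular tyrosine phosphatase, was at 2873, 3294, and 3000.1 CPM in WT, against 1027, 887, and 923 CPM in TNF-Tg and changed by -1.72 ± 0.10 (SE), edgeR FDR = 8.13e-05. *Tek*, the receptor for angiopoietins, was at 737, 755, and 748 CPM in WT, against 367, 271, and 252 CPM in TNF-Tg and changed by -1.36 ± 0.13 (SE), edgeR FDR = 0.000593. *Lyve1* and *Vwf*, described above, are on this list. *Gpihbp1*, *Lpl*, *Cd36*, *Hpgd*, *Tmem100*, and *Clec1a* also fell, with log2 fold changes of -1.34, -1.86, -1.43, -1.15, -1.14, and -0.48. The remaining genes were *Cd93* at -0.15, *Aplnr* at -0.08, and *Ednrb* at 0.12, and these did not pass. *Ednrb* is also on the list of aerocyte markers and was at no more than 15.4 CPM in any library. Across 19 alternative settings, 9 to 12 of these genes fell and none rose.

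For KIT signaling, 6 of 33 genes tested rose and 2 fell, with a median of -0.04, against 13.4% of all genes that rose and 12.9% that fell. Across 19 alternative settings, 0 to 7 rose and 1 to 6 fell. *Kitl*, which encodes the ligand of KIT, was at 225, 253, and 302 CPM in WT, against 324, 382, and 387 CPM in TNF-Tg and rose by 0.46 ± 0.13 (SE), edgeR FDR = 0.0342. *Spry2*, a feedback inhibitor of receptor tyrosine kinases, was at 25.4, 22.98, and 23.7 CPM in WT, against 12.9, 15.8, and 14.7 CPM in TNF-Tg and changed by -0.77 ± 0.12 (SE), edgeR FDR = 0.00382. *Fyn*, a Src family kinase, rose by 0.43 ± 0.13 (SE), edgeR FDR = 0.0407. The call of *Kitl* was lost without any of 4 of the libraries, namely WT at 8 or 14 weeks and TNF-Tg at either later age, and that of *Fyn* without WT at 14 or 20 weeks or TNF-Tg at either later age. The call of *Kitl* was also lost at a gap of 3 genes in place of 2, at 0.48 with edgeR FDR = 0.0546, and over all capillary barcodes, at 0.36 with edgeR FDR = 0.05295. That of *Fyn* was also lost with age as a block, at 0.43 with edgeR FDR = 0.0632, with sums thinned to equal depth, at 0.37 with edgeR FDR = 0.0779, and over all capillary barcodes, at 0.35 with edgeR FDR = 0.0657.

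Cyclic nucleotide and vasodilator signaling, in which GLP1R and the natriuretic peptide receptors act, had 12 of 39 genes that fell and 6 that rose, with a median of 0.03. With cells thinned to 1000 UMIs, 3 of 30 rose and 14 fell, with a median of -0.46. *Npr1*, the receptor that makes cyclic GMP in response to atrial natriuretic peptide, was at 162, 204, and 183 CPM in WT, against 123, 96.2, and 85.2 CPM in TNF-Tg and changed by -0.88 ± 0.14 (SE), edgeR FDR = 0.00359. *Calcrl*, the receptor that adrenomedullin uses together with a RAMP protein, was at 2829.7, 2962, and 3287 CPM in WT, against 2255, 1684, and 1286 CPM in TNF-Tg and changed by -0.83 ± 0.18 (SE), edgeR FDR = 0.0116. Its partners moved in opposite directions. *Ramp2* was at 2213, 2710.1, and 2459 CPM in WT, against 1338, 1029, and 878 CPM in TNF-Tg and changed by -1.22 ± 0.15 (SE), edgeR FDR = 0.00142, whereas *Ramp3* was at 34.4, 20.5, and 22.1 CPM in WT, against 70.2, 72.01, and 87.3 CPM in TNF-Tg and rose by 1.54 ± 0.21 (SE), edgeR FDR = 0.00188. *Ptgs1*, cyclooxygenase 1, was at 45.6, 83.6, and 60.4 CPM in WT, against 12.5, 10.1, and 7.14 CPM in TNF-Tg and changed by -2.65 ± 0.26 (SE), edgeR FDR = 0.000593. *Nos3*, which encodes endothelial nitric oxide synthase, was at 44.9, 33.3, and 31.4 CPM in WT, against 43.7, 49.2, and 50.9 CPM in TNF-Tg, and its log2 fold change of 0.36 ± 0.16 (SE), edgeR FDR = 0.1295, did not pass.

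Semaphorin signaling had 6 of 19 genes that rose and 4 that fell, with a median of 0.01. Across 19 alternative settings, 5 to 8 rose and 2 to 7 fell. *Nrp2*, a receptor for class 3 semaphorins and VEGF-C, was at 6.84, 6.87, and 9.06 CPM in WT, against 51.2, 68.2, and 84.7 CPM in TNF-Tg and rose by 3.12 ± 0.22 (SE), edgeR FDR = 0.0001903. The plexins, which are the signaling receptors of semaphorins, went both ways. *Plxnd1* rose by 0.66, *Plxnb2* by 1.09, and *Plxnb1* by 1.904, while *Plxna1* changed by -1.01 and *Plxnc1* by -1.27, with edgeR FDR = 0.00406, 0.0008197, 0.0131, 0.00186, and 0.0297. The call of *Plxnc1* did not hold without any one WT library or the 14-week TNF-Tg library.

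TNF receptors and NF-κB targets rose as a list in count, with 20 of 38 genes higher and 2 lower and a median of 0.69. The inhibitors and subunits of NF-κB itself were among them. *Nfkbie*, which encodes the inhibitor IκBε, was at 3.103, 4.51, and 4.27 CPM in WT, against 38.2, 29.4, and 27.8 CPM in TNF-Tg and rose by 2.98 ± 0.18 (SE), edgeR FDR = 9.08e-05. *Nfkb2*, a subunit of the noncanonical pathway, was at 19.7, 21.1, and 21.7 CPM in WT, against 58.3, 51.3, and 49.95 CPM in TNF-Tg and rose by 1.33 ± 0.09 (SE), edgeR FDR = 0.000165. *Nfkbia*, which encodes the inhibitor IκBα, was at 379, 396, and 371 CPM in WT, against 567, 509, and 525 CPM in TNF-Tg and rose by 0.45 ± 0.08 (SE), edgeR FDR = 0.00675. *Tnfaip3*, the ubiquitin-editing inhibitor A20, was at 17.3, 13.2, and 20.98 CPM in WT, against 70.3, 69.2, and 81.1 CPM in TNF-Tg and rose by 2.06 ± 0.16 (SE), edgeR FDR = 0.000268. TNF-Tg libraries at 8 weeks stood as high as those at later ages for the first 3 of these genes, and *Tnfaip3* was highest at 20 weeks. *Vcam1*, an adhesion molecule for leukocytes, was at 10.1, 13.8, and 12.2 CPM in WT, against 53.9, 93.01, and 122 CPM in TNF-Tg and rose by 2.86 ± 0.30 (SE), edgeR FDR = 0.000815. *Ccl2*, a chemokine for monocytes, was at 0.0705, 0.573, and 0.117 CPM in WT, against 1.22, 53.4, and 31.6 CPM in TNF-Tg, with edgeR FDR = 0.0118. In TNF-Tg it was far lower at 8 weeks than at both later ages, and its call did not hold without the 20-week WT library, with edgeR FDR = 0.0558. The receptor *Tnfrsf1a* was at 218, 209.6, and 223 CPM in WT, against 145, 143, and 118 CPM in TNF-Tg and changed by -0.705 ± 0.09 (SE), edgeR FDR = 0.00192, and *Irf1* changed by -0.41 ± 0.09 (SE), edgeR FDR = 0.0163. With cells thinned to 1000 UMIs, 14 of 30 genes rose, and without barcodes that carried genes of other lineages, 18 of 33 rose.

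Promoters of this list were searched for the core of a site that NF-κB is known to bind, GGGA and TTCC with 2 bases of any kind between them, on either strand, in RefSeq sequences of GRCm38.p6 from 250 bases before to 50 after the start of transcription. Of the 20 genes that rose, 14 had a promoter in the table, and 4 of these (28.6%) held the letters, against 1 of 16 other genes of the list (6.25%) and 1.78% of 9755 genes tested. The list was compiled from components and known targets of the NF-κB pathway, so a higher share than among all genes may be built into its choice, and the difference between its genes that rose and the others was not tested. The motif was chosen after the list had been seen to rise, and a match of letters does not show binding. The promoters of *Nfkbia*, of *Nfkb2* at its second listed start, and of *Cxcl1*, a neutrophil chemokine at 0.353, 0.215, and 0.175 CPM in WT, against 2.68, 3.99, and 3.81 CPM in TNF-Tg, are shown because they hold the letters, which are in capitals. 
Nfkbia, chr12:55492598-55492897, minus strand: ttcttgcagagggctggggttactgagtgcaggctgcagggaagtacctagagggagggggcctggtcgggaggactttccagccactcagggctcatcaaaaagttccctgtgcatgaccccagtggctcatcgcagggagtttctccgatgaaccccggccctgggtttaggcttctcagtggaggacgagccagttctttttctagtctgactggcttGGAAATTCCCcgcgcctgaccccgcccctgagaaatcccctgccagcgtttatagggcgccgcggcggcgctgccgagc
Nfkb2, chr19:46305445-46305744, plus strand: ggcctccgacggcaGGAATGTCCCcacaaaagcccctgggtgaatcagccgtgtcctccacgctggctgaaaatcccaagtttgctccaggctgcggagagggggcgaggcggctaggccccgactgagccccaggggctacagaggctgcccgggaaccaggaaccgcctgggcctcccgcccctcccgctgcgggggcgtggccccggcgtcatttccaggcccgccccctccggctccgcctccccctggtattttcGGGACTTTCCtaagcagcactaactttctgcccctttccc
Cxcl1, chr5:90890995-90891294, plus strand: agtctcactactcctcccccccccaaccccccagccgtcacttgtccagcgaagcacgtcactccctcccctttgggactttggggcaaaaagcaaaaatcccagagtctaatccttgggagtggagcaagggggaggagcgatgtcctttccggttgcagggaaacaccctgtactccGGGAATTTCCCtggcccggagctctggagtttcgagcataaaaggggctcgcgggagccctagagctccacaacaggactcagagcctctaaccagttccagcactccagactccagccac

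In contrast, interferon-stimulated genes fell, with 17 of 35 lower and 2 higher and a median of -0.46. *Gbp2*, a guanylate-binding protein, was at 128, 142, and 141 CPM in WT, against 56.4, 42.7, and 53.5 CPM in TNF-Tg and changed by -1.46 ± 0.11 (SE), edgeR FDR = 0.000229. *Igtp*, an interferon-inducible GTPase, was at 87.2, 74.9, and 62.5 CPM in WT, against 30.8, 21.3, and 19.3 CPM in TNF-Tg and changed by -1.66 ± 0.19 (SE), edgeR FDR = 0.000983. *Iigp1*, of the same family, was at 235, 185, and 171 CPM in WT, against 109, 47.7, and 43.1 CPM in TNF-Tg and changed by -1.58 ± 0.32 (SE), edgeR FDR = 0.0104. *Stat2*, which carries the interferon signal to the nucleus, changed by -0.77, with edgeR FDR = 0.00112. The genes that rose were *Oas1a* at 0.96 and *Ifit2* at 0.67, and *Irf8*, at 1.55, 2.08, and 2.63 CPM in WT, against 1.15, 3.99, and 4.52 CPM in TNF-Tg, did not pass with a log2 fold change of 0.51 ± 0.51 (SE), edgeR FDR = 0.5005. Without the 14-week WT library, 10 genes fell and none rose, and without the 8-week TNF-Tg library, 26 fell and 3 rose.

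For antigen presentation, 10 of 24 genes were lower and 1 higher, with a median of -0.43. Across 19 alternative settings, 6 to 15 fell, the fewest without the 14-week and the most without the 8-week TNF-Tg library. *H2-T23*, a nonclassical class I molecule, was at 669, 580.1, and 604 CPM in WT, against 348, 317, and 259 CPM in TNF-Tg and changed by -1.03 ± 0.12 (SE), edgeR FDR = 0.00109. *Psmb9*, a subunit of the immunoproteasome, was at 265, 238, and 276 CPM in WT, against 173, 105, and 103 CPM in TNF-Tg and changed by -1.06 ± 0.19 (SE), edgeR FDR = 0.00539. *Nlrc5*, the transactivator of class I genes, changed by -1.19 ± 0.18 (SE), edgeR FDR = 0.0030997. The exception was *Cd74*, the class II invariant chain, which was at 1028, 846, and 978 CPM in WT, against 1252, 2189, and 1778 CPM in TNF-Tg and rose by 0.85 ± 0.20 (SE), edgeR FDR = 0.0178. Leukocytes also express *Cd74*, and summed immune markers were highest in TNF-Tg at 20 weeks, at 190.3 CPM. Their part in the rise was not tested.

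BMP and TGF-β signaling changed in both directions, with 10 of 32 genes lower and 7 higher and a median of -0.08. Receptors for BMP ligands were among those that fell. *Bmpr2* was at 1643, 1856, and 1795 CPM in WT, against 838, 1002, and 954 CPM in TNF-Tg and changed by -0.95 ± 0.11 (SE), edgeR FDR = 0.000983. *Acvrl1*, which encodes the type I receptor ALK1, was at 1227, 1415, and 1376 CPM in WT, against 709, 683, and 658 CPM in TNF-Tg and changed by -0.998 ± 0.09 (SE), edgeR FDR = 0.000395. Among ligands, *Bmp6* was at 354, 394, and 387 CPM in WT, against 220.3, 231, and 237 CPM in TNF-Tg and changed by -0.75 ± 0.09 (SE), edgeR FDR = 0.00119, and *Bmp4* changed by -1.16 ± 0.17 (SE), edgeR FDR = 0.00272, whereas *Bmp2* rose as given above. On the TGF-β side, *Tgfb2* was at 8.603, 5.298, and 8.297 CPM in WT, against 42.1, 98.5, and 178 CPM in TNF-Tg and rose by 3.79 ± 0.52 (SE), edgeR FDR = 0.00206, and the receptor *Tgfbr2* was at 82.6, 75.6, and 82.1 CPM in WT, against 164, 228, and 215 CPM in TNF-Tg and rose by 1.31 ± 0.14 (SE), edgeR FDR = 0.0008197. The coreceptor *Tgfbr3* was at 76.2, 87.1, and 78.8 CPM in WT, against 29.8, 30.3, and 30.4 CPM in TNF-Tg and changed by -1.45 ± 0.09 (SE), edgeR FDR = 9.08e-05. Thus *Bmp2* and *Tgfb2* were higher while *Bmp4*, *Bmp6*, *Bmpr2*, and *Acvrl1* were lower in each TNF-Tg library than in any WT library.

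Basement membrane and integrin genes rose, with 19 of 35 higher and 2 lower and a median of 0.76. Both chains of the main collagen of basement membranes were among them. *Col4a1* was at 906, 676, and 754 CPM in WT, against 2656, 3283, and 3063 CPM in TNF-Tg and rose by 1.92 ± 0.14 (SE), edgeR FDR = 0.000229. *Col4a2* was at 509, 353, and 356 CPM in WT, against 1422, 1734, and 1559 CPM in TNF-Tg and rose by 1.92 ± 0.17 (SE), edgeR FDR = 0.000404. *Igfbp7*, a secreted protein of the vessel matrix, was at 292, 242, and 207 CPM in WT, against 1367, 2831, and 2739 CPM in TNF-Tg and rose by 3.203 ± 0.30 (SE), edgeR FDR = 0.000507. *Fn1*, which encodes fibronectin, was at 20.3, 17.04, and 11.4 CPM in WT, against 101, 182, and 257 CPM in TNF-Tg and rose by 3.44 ± 0.38 (SE), edgeR FDR = 0.000892. *Lama4*, a laminin chain of endothelial basement membrane, was at 23.3, 13.3, and 12.5 CPM in WT, against 70.2, 167, and 179.8 CPM in TNF-Tg and rose by 3.06 ± 0.41 (SE), edgeR FDR = 0.00184. All of these were already above WT at 8 weeks, and all but *Col4a1* and *Col4a2* had their lowest TNF-Tg level then by a wide margin. The integrin subunit *Itga1*, part of a collagen receptor, was at 1537, 1351, and 1449 CPM in WT, against 875, 607, and 476 CPM in TNF-Tg and changed by -1.18 ± 0.19 (SE), edgeR FDR = 0.00399. With cells thinned to 1000 UMIs, 18 of 28 genes rose.

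In VEGF, angiopoietin, and Notch signaling, 16 of 33 genes fell and 7 rose, with a median of -0.44. *Flt1*, a VEGF receptor that limits signaling, was at 825, 976, and 952 CPM in WT, against 383, 339, and 352 CPM in TNF-Tg and changed by -1.39 ± 0.10 (SE), edgeR FDR = 0.0001903. *Kdr*, the main signaling VEGF receptor, was at 402, 417, and 419 CPM in WT, against 269, 313, and 347 CPM in TNF-Tg and changed by -0.44 ± 0.12 (SE), edgeR FDR = 0.0272. The call for *Kdr* was lost with cells thinned to 1000 UMIs, at a log2 fold change of -0.06 with edgeR FDR = 0.821, without the *Prnd* exclusion, at -0.18 with edgeR FDR = 0.374, and over all capillary barcodes, at -0.42 with edgeR FDR = 0.0528, and it did not hold without any WT library or the 14-week TNF-Tg library. *Vegfc* changed by -2.34 ± 0.28 (SE), edgeR FDR = 0.00132. *Esm1*, which encodes endocan, was at 28.8, 45.8, and 32.8 CPM in WT, against 3.901, 5.85, and 8.801 CPM in TNF-Tg and changed by -2.68 ± 0.30 (SE), edgeR FDR = 0.000967, and by -0.88 without the *Prnd* exclusion. Its call was lost at a gap of 1 gene in place of 2, at -1.89 with edgeR FDR = 0.0695, and over all capillary barcodes, at -1.42 with edgeR FDR = 0.117. *Dll4* and *Notch1*, a Notch ligand and receptor, changed by -0.69 and -0.48. Among rises, *Cd34*, a sialomucin of vessel walls, was at 169.7, 111, and 133 CPM in WT, against 568, 816, and 798 CPM in TNF-Tg and rose by 2.37 ± 0.21 (SE), edgeR FDR = 0.000389, and *Unc5b*, a netrin receptor, was at 17.2, 17.8, and 15.2 CPM in WT, against 89.9, 139.9, and 136 CPM in TNF-Tg and rose by 2.84 ± 0.19 (SE), edgeR FDR = 0.000176.

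Haemostasis genes rose in 8 of 22 cases and fell in 3, with a median of 0.06. The falls lie near the 12.9% of all genes that fell. Over 19 alternative settings, 7 to 10 genes of this list rose and 3 to 5 fell, with medians from -0.05 to 0.62. Besides *Vwf*, the genes that fell were *Thbd*, which encodes the anticoagulant thrombomodulin, at 1203, 1187, and 1319.6 CPM in WT, against 568, 486, and 489 CPM in TNF-Tg, and *Entpd1*, an enzyme that degrades ATP and ADP. *Thbd* changed by -1.29 ± 0.09 (SE), edgeR FDR = 0.0001903 and *Entpd1* by -1.79 ± 0.16 (SE), edgeR FDR = 0.000419. *Plat*, the tissue plasminogen activator, and *Cd55*, a complement inhibitor, rose by 1.22 and 2.56, with edgeR FDR = 0.00217 and 0.000892.

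Fatty acid uptake and handling had 8 of 25 genes lower and 2 higher, with a median of -0.04. Across 19 alternative settings, 4 to 10 fell, with 4 of 28 without the 20-week WT library and 4 of 27 without the 14-week TNF-Tg library. *Lpl*, which encodes lipoprotein lipase, was at 199, 384, and 233 CPM in WT, against 80.8, 81.98, and 66.8 CPM in TNF-Tg and changed by -1.86 ± 0.24 (SE), edgeR FDR = 0.00162. *Hilpda*, a lipid droplet protein, was at 622, 658, and 861 CPM in WT, against 374, 165, and 93.002 CPM in TNF-Tg and changed by -1.79 ± 0.42 (SE), edgeR FDR = 0.0183, a call that did not hold without the 14- or 20-week WT library or the 14-week TNF-Tg library.

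Genes of cell cycle arrest and apoptosis rose in 8 of 33 cases and fell in 5, with a median of 0.02, against 13.4% and 12.9% of all genes, so that the falls lie near the background. Across 19 alternative settings, 6 to 10 rose and 3 to 9 fell. *Trp53*, which encodes p53, was at 49.01, 43.7, and 46.5 CPM in WT, against 115, 102, and 99.4 CPM in TNF-Tg and rose by 1.16 ± 0.08 (SE), edgeR FDR = 0.000208. *Tnfrsf10b*, a death receptor, was at 12.1, 8.95, and 11.2 CPM in WT, against 30.98, 34.01, and 38.5 CPM in TNF-Tg and rose by 1.64 ± 0.15 (SE), edgeR FDR = 0.000447. *Ccnd1* and *Casp4* rose by 1.16 and 1.36, with edgeR FDR = 0.00429 and 0.00185. Among endothelial transcription factors, 13 of 38 fell and 7 rose, with a median of -0.10. *Epas1*, which encodes HIF-2α, was at 3217, 3648, and 3438 CPM in WT, against 1858, 1490.4, and 1445 CPM in TNF-Tg and changed by -1.13 ± 0.11 (SE), edgeR FDR = 0.000567. *Foxf1*, which specifies lung endothelium, changed by -0.61 ± 0.12 (SE), edgeR FDR = 0.00727, and *Hopx* by -2.72 ± 0.24 (SE), edgeR FDR = 0.000404, the latter of which is also on the list of epithelial markers. *Gata6* was at 35.5, 29.7, and 31.03 CPM in WT, against 118, 90.3, and 99.9 CPM in TNF-Tg and rose by 1.65 ± 0.12 (SE), edgeR FDR = 0.0001903, and *Sox17* was at 310.1, 260.0, and 314 CPM in WT, against 540.2, 604, and 634 CPM in TNF-Tg and rose by 0.98 ± 0.11 (SE), edgeR FDR = 0.00111.

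**Figure D4:**
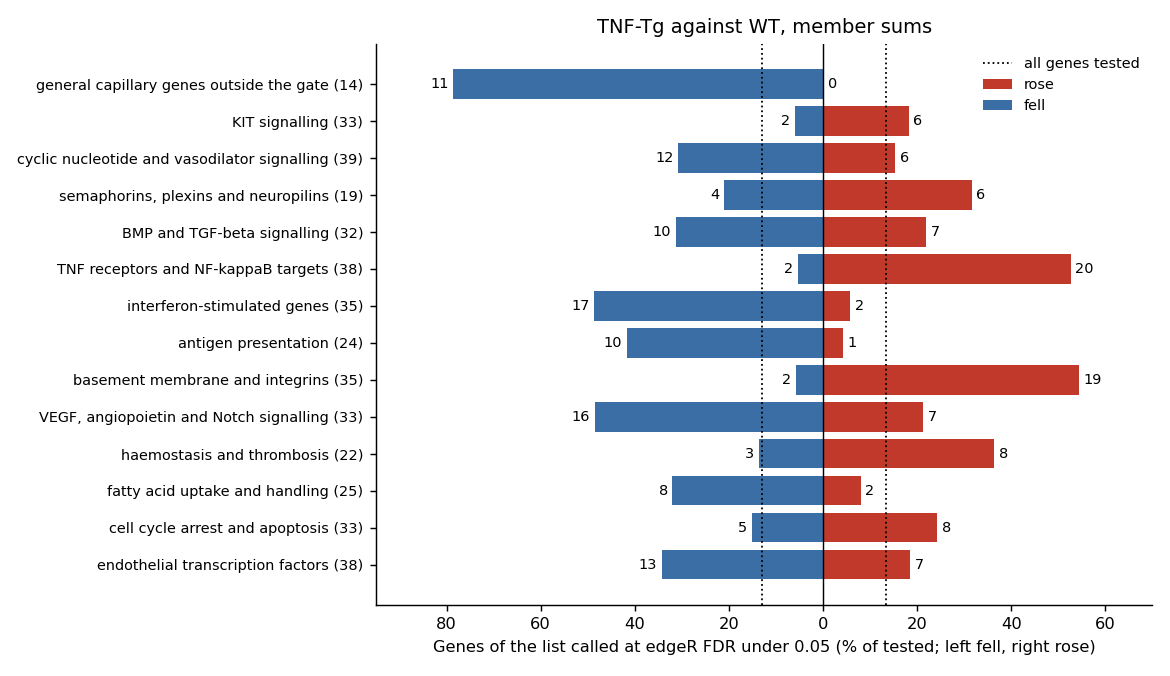
Percent of the tested genes of each list (number tested in brackets) that fell (blue, left) or rose (red, right) in TNF-Tg members at an edgeR FDR under 0.05, with counts at the bar ends and dotted lines at the 12.9% and 13.4% of all genes tested; "the gate" is the rule that chose the members. General capillary genes reach farthest to the left, with 11 of 14, and matrix and NF-κB genes farthest to the right, with 19 of 35 and 20 of 38.

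The difference between genotypes was present at 8 weeks and was larger later for the genes that fell. At each age the TNF-Tg level was set against the WT level as a log2 ratio of CPM + 1, which understates the change of low genes. The median ratio of the 1711 genes that rose was 0.59 at 8 weeks, 0.77 at 14 weeks, and 0.69 at 20 weeks. The 1636 genes that fell had medians of -0.49, -0.70, and -0.77, and 80.1% of them differed more at 20 than at 8 weeks, against 60.5% of all genes. For the genes that rose this share was 55.5%, below that of all genes. The median ratio of all genes tested went from 0.06 at 8 weeks to -0.04 at 20 weeks. Of the genes that rose, 1706 had the same direction at all 3 ages, and of those that fell, 1635 did. These genes were called on the same libraries, so the counts are a description. Both genotypes at 8 weeks were processed with one version of the counting software and the other libraries with another. Between 8 weeks and the later ages, effects of the version and of age cannot be told apart.

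By list, the median ratio of basement membrane and integrin genes was 0.35, 1.19, and 1.32 at the 3 ages. That of NF-κB genes was 0.72, 0.46, and 0.65, so that it was no higher later. Interferon-stimulated genes were at -0.19, -0.52, and -0.66, VEGF, angiopoietin, and Notch genes at -0.21, -0.49, and -0.70, and general capillary genes at -0.81, -1.44, and -1.74.

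**Figure D5:**
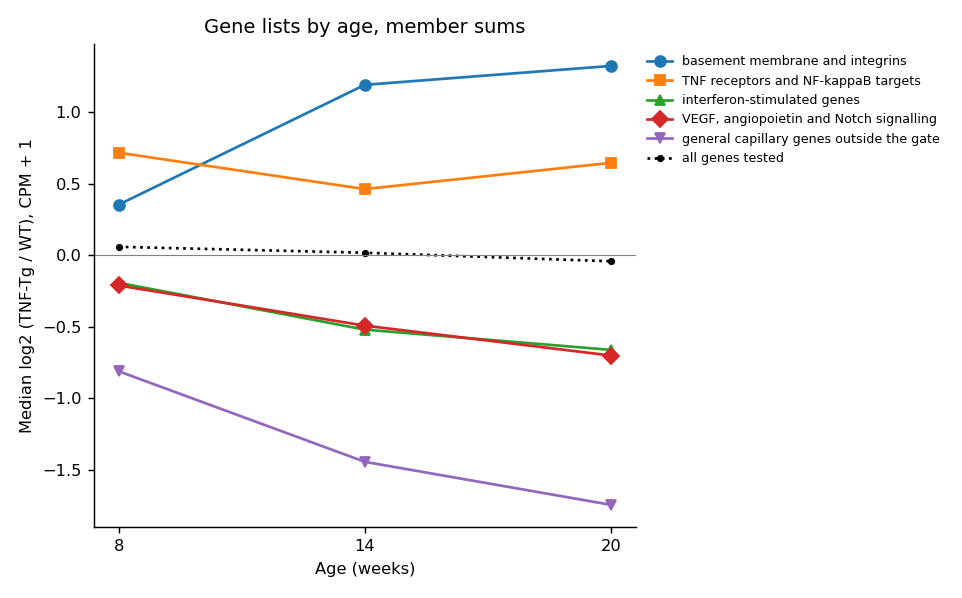
Median over the genes of a list of the log2 ratio of TNF-Tg to WT (y axis, CPM + 1, member sums) at each age in weeks (x axis), with all genes tested as a dotted line near 0. The matrix list goes from 0.35 to 1.32 and the general capillary list from -0.81 to -1.74, while the NF-κB list stays between 0.46 and 0.72.

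A test of whether the change per week differed between genotypes had 2 residual degrees of freedom, and 1 of 12783 genes passed (0.00782%), with 1130 at an unadjusted p under 0.05 and 81 by DESeq2. That gene was *Cyp26b1*, an enzyme that degrades retinoic acid. It was at 41.5, 60.4, and 55.4 CPM in WT, against 77.9, 2.66, and 0.238 CPM in TNF-Tg, and its slope in TNF-Tg differed from that in WT by -0.82 on the log2 scale per week, with edgeR FDR = 0.00397. *Cyp26b1* thus stood above WT at 8 weeks and near 0 at 20 weeks. Without the 8-week TNF-Tg library the difference in slope was -0.599 with edgeR FDR = 0.7097, and with a gap of 1 gene in place of 2 it was -0.74 with edgeR FDR = 0.233.

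Genes of other cell types were looked for in the same sums, since they would mark doublets or free RNA. For mesenchymal cells, at least 14 of 15 markers were detected in every library, and their summed level was 724, 391, and 302 CPM in WT, against 567, 1007, and 477 CPM in TNF-Tg. *Dcn* or *Acta2* was the most abundant of them. Immune markers summed to 31.4, 10.9, and 10.9 CPM in WT, against 47.4, 27.1, and 190.3 CPM in TNF-Tg, with *Lyz2* the most abundant, and *Cd3e* was at 0 in all but the 20-week TNF-Tg library. Epithelial markers summed to 693, 539.5, and 429.5 CPM in WT, against 344, 148, and 66.8 CPM in TNF-Tg, led by *Hopx* or *Scgb1a1*. Red cell markers summed to 2512, 1074, and 89.1 CPM in WT, against 4059, 14.9, and 3722 CPM in TNF-Tg, led by *Hbb-bs*. These sums therefore did not separate the genotypes, except those of epithelial markers, although immune sums were higher in TNF-Tg at each age. Lymphatic markers, which *Lyve1* led in WT, also separated them, with sums of 491, 744, and 570.1 CPM in WT against 100.2, 40.9, and 91.6 CPM. Mesothelial markers, led by *Msln* or *Upk3b*, summed to at most 31.5 CPM in any library. Genes that the exclusions used also differed between the sums of members, which is a description and not a test. *Prnd*, of which a member could hold at most 1 UMI, was at 0.0705, 0.0716, and 0.0584 CPM in WT, against 17.1, 28.3, and 24.02 CPM in TNF-Tg. *Car4*, an aerocyte gene, was at 124, 132, and 193 CPM in WT, against 359, 699.5, and 544 CPM in TNF-Tg, whereas *Emp2*, another, was at 205, 138, and 162 CPM against 50.3, 51.7, and 61.4 CPM. The cycling gene *Mki67* was at 0.635, 0.286, and 0.701 CPM in WT, against 2.75, 3.99, and 2.62 CPM in TNF-Tg. The genotypes did not overlap for any of these 4 genes, and their role in the results was not tested.

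In the comparison of genotypes, 1 of 15 mesenchymal markers rose (*Lum*, at 1.45) and 3 fell, with a median of 0.59. No immune (5 tested, median 1.31), mesothelial (6, median 0.25), or red cell marker (5, median 0.99) passed. Over the 19 alternative settings, between 0 and 5 immune markers rose, with medians from 1.07 to 4.59, and the 5 were of 20 tested with no filter on low counts. At most 1 mesothelial marker rose, without the 14-week WT library, with medians from -0.17 to 1.47, and no red cell marker did. Of 8 epithelial markers, *Ager* and *Hopx* fell (median -2.27), with *Ager* at -2.92. Of 8 lymphatic markers, *Lyve1* and *Flt4* fell (median 1.10), and *Prox1* was at 0.353, 0.215, and 0.818 CPM in WT, against 0.688, 2.52, and 1.67 CPM in TNF-Tg. Of 6 aerocyte markers outside the rule, *Kitl* and *Sirpa* rose and *Kdr* and *Pmp22* fell (median 0.20). With cells thinned to 1000 UMIs the call of *Pmp22* was lost, at -0.21 with edgeR FDR = 0.297. Of 16 early response and heat shock genes, which dissociation can raise, *Junb* rose and *Jun*, *Dusp1*, and *Atf3* fell (median -0.01). The calls of *Lum* and *Ager* were lost under 11 and 3 of 19 settings, the latter without barcodes that carried genes of other lineages, at a log2 fold change of -1.005. The part of these cells in the results was not tested beyond leaving out those barcodes.

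Whether the change in members differed from that in other capillary cells was tested as an interaction. The rule reads genes that themselves differed between genotypes, so it may place different kinds of cells on either side of its limit. Members were 77.7%, 76.9%, and 78.0% of capillary barcodes in WT but 56.4%, 55.1%, and 40.7% in TNF-Tg. A shift of cells across the limit and a differing change within cells cannot be told apart. Against the mirrored rule, with 17 to 65 barcodes per library, 4 of 10918 genes passed (0.0366%), 1 with a higher change in members (0.00916%) and 3 with a lower one (0.0275%), with 735 at an unadjusted p under 0.05. Against all 5776 other capillary barcodes, a comparison chosen after seeing the data, 12 of 12657 passed (0.0948%), 11 higher in members (0.0869%) and 1 lower (0.0079%), with 755 at an unadjusted p under 0.05. *Atp13a3* was at 130.3, 147, and 92.3 CPM in WT, against 243, 697, and 633 CPM in TNF-Tg in those cells, so that WT members had less of it than other capillary cells and TNF-Tg members more, and the difference between the log2 changes was 2.06 ± 0.13 (SE), edgeR FDR = 0.000241. *Gata6* was at 50.6, 44.3, and 41.5 CPM in WT, against 113, 78.5, and 91.8 CPM in TNF-Tg in the other capillary cells, with a difference of 0.62 ± 0.08 (SE), edgeR FDR = 0.0237. *Nrp2* was at 28.8, 38.9, and 70.3 CPM in WT, against 57.8, 104, and 144 CPM in TNF-Tg there, with a difference of 2.07 ± 0.21 (SE), edgeR FDR = 0.00525. The other capillary cells held more barcodes with lymphatic genes than members did, with 162 of 5776 against 10 of 13235, and the part of these cells in the difference was not tested. With cells thinned to 1000 UMIs, 69 genes passed the same comparison, 58 higher and 11 lower in members. Cells were thinned before the choice, so that membership changed as well, from 1730 to 2408 barcodes in TNF-Tg at 8 weeks and from 3161 to 2400 in WT at 14 weeks, and the effects of depth and of membership cannot be told apart. A gene that did not pass is not shown to have changed alike.

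As a description, genes outside the rule were ranked by the ratio of members to the barcodes of the mirrored rule. The library with the least extreme ratio of a gene set its rank, and the median ratio gives another order. Of the ranked genes, 10 were taken as highest and 10 as lowest. The first were *Gm26917*, *Nckap5*, *Piezo2*, *Stard9*, *Meis1*, *AU020206*, *Dcn*, *Adamts1*, *Adgrf5*, and *Casc4*, and the second included *Reln*, *Ptx3*, *Rbp7*, *Dapk2*, *Mmrn1*, *Fabp4*, *Thy1*, *Fam25c*, and *Aldh3a1*. *Reln*, *Mmrn1*, and *Thy1* are on the list of lymphatic markers, and *Dcn* is on that of mesenchymal markers. Under the mirrored rule, *Dcn* had 0, 2, and 0 UMIs in WT and 3, 3, and 65 in TNF-Tg. The ratios rest on few UMIs under the mirrored rule, where *Fam25c* and *Aldh3a1* had UMIs in the 20-week WT library alone, at 145 and 240. Against all other capillary barcodes, *Gm26917*, *Nckap5*, *Stard9*, and *AU020206* were again among the 10 highest and *Mmrn1* and *Fabp4* among the 10 lowest, whereas *Piezo2*, a mechanically gated channel, and *Adgrf5*, an adhesion receptor of capillaries, were not among the 10 highest.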

How the data were processed

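UMI counts of 32285 genes per cell barcode in 6 libraries were deposited as whole numbers without normalization. Per the file headers, the authors made them with Cell Ranger 5.0.0 (8-week libraries) or 6.0.1 (14- and 20-week libraries). The labels name 5.0.0 and mm10. Lists of genes and barcodes deposited with them were used for names only, and gene positions are those of GENCODE vM21 (GRCm38).

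Barcodes were kept with at least 500 genes and at most 10% mitochondrial UMIs. Those with at least 3 of *Pecam1*, *Cdh5*, *Cldn5*, *Tie1*, and *Egfl7* were endothelial. Capillary barcodes had fewer than 3 of *Car4*, *Fibin*, *Emp2*, *Tbx2*, *Chst1*, and *Apln*, fewer than 2 of *Gja5*, *Bmx*, and *Dkk2*, of *Selp*, *Bst1*, *Amigo2*, and *Lhx6*, and of *Mki67*, *Top2a*, and *Cenpf*, and fewer than 2 *Prnd* UMIs. No annotation of cells by the authors and no doublet caller was used. Alternatives left out barcodes with 2 or more genes of other lineages or the 5% with most UMIs. Library pairs shared 6 to 24 barcode sequences.

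UMIs of members were summed per library and compared with edgeR 4.0.16 in R 4.3.3 (filterByExpr, TMM, quasi-likelihood F test, Benjamini-Hochberg adjustment over all genes tested, called at an FDR under 0.05). SE is the size of the log2 fold change divided by the square root of F. Cells were not used as replicates, and each library pools separate mice of 1 genotype and age. The interaction had library as a block. DESeq2 1.42.0 and other settings were alternatives. The fit was tested on simulated data for the comparison of genotypes (12641 genes), where 98% of 2-fold and 100% of 4-fold changes were found. There were 10 false calls. The share of changes found in the libraries themselves was not tested. Measured in cells chosen without them, *Glp1r* at -1.72 ± 0.63 (SE) and *Hmcn1* at -1.14 ± 0.44 (SE) did not pass, and *Npr3* at -1.88 ± 0.26 (SE) did. Intervals of shares are exact (95%) and cover counting error only.

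Named genes were those of the rule, genes the study makes claims about, the 10 largest changes in each direction with at least 50 CPM and no overlap, up to 3 called genes per list with at least 20 CPM, and called interactions and slopes with at least 50 CPM. Other list members were named for their known roles, after their values were seen. Results for some genes that the rule names are not reported here. The members and lists were chosen with earlier results of these data known.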

Additional observations from a re-analysis of the deposited data

Results flagged for a closer look

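The results here stood out because the difference between genotypes in members differed, by an interaction test in edgeR, from that in other capillary cells, or because it changed with age. As stated above, the interaction cannot be told apart from a shift of cells across the limit of the rule. Against all other capillary barcodes, *Saa3*, which encodes an acute-phase serum amyloid, had a difference of -7.67 in log2 change. It was at 0.494, 0.358, and 130.2 CPM in WT members, against 0.382, 1.33, and 116 CPM in TNF-Tg members. In other capillary cells it was at 0.227, 0, and 0.9105 CPM in WT, against 0.973, 1.63, and 209 CPM in TNF-Tg. At 20 weeks it was thus high in the member sums of both genotypes, but elsewhere high in the TNF-Tg sum alone. The difference rests on the 20-week libraries.

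For *Cdh13*, *Hspg2*, *Adgrg6*, *Ndrg1*, *Ltbp4*, and *Plac8*, the differences were 2.15, 1.62, 1.499, 1.01, 0.75, and 1.04, and for *Atp13a3*, *Nrp2*, and *Gata6*, 2.06, 2.07, and 0.62. *Adgrg6*, an adhesion receptor, fell in both kinds of cells but less in members, where it was at 24.1, 22.6, and 21.7 CPM in WT, against 13.5, 2.79, and 2.62 CPM in TNF-Tg. *Hspg2* was at 28.8, 17.4, and 23.9 CPM in WT, against 129, 267, and 384 CPM in TNF-Tg in other capillary cells, so that members were lower in WT and close to these cells in TNF-Tg.

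Against the 17 to 65 barcodes per library of the mirrored rule, *Postn*, *Cox4i2*, and *Gucy1a1* had differences of -13.16, -6.31, and -5.38 and *Ndrg1* one of 2.47. *Postn*, a matrix protein of fibroblasts, was at 0, 0, and 0 CPM in WT, against 233, 313, and 164 CPM in TNF-Tg under the mirrored rule, and a fitted value against libraries at 0 is no bound. *Cox4i2* and *Gucy1a1*, which pericytes also express, were at 121.5 and 135 CPM there in the 8-week TNF-Tg library and at 0 and 12.7 CPM in the 8-week WT library. These values come from very few cells. *Cox4i2* and *Gucy1a1* lost the call without the 8-week WT library and without barcodes that carried genes of other lineages, and neither these nor *Postn* passed against all other capillary barcodes. The comparison with all other capillary barcodes was not run without single libraries.

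The slope of *Cyp26b1* differed by -0.82 per week on the log2 scale, with its level near 0 in the last TNF-Tg library.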

How the results depend on the processing

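Of 68 named genes, 66 were called, and 53 of these were called in each of 19 alternative settings. Over all gene and setting pairs, 1227 of 1286 kept direction and side of the threshold, 51 lost the call, and 8 changed sign, all of them *Ednrb*, which was not called (-0.01 without the 20-week WT library, -0.32 without the 14-week TNF-Tg library, -0.065 with sums at equal depth, -0.11 with thinned cells, -0.34 at a gap of 3 genes, -0.79 without barcodes of other lineages, -0.017 without the 5% of barcodes with most UMIs, and -0.38 without the *Prnd* exclusion). Without single libraries *Ednrb* ranged from -0.32 to 0.42. The cause was not tested.

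With cells thinned to 1000 UMIs, 2080 genes were called in the comparison of genotypes, 1085 higher and 995 lower. Without the *Prnd* exclusion, 4353 were called, 2195 higher and 2158 lower. Leaving out single libraries gave 1831 to 4158 genes, with 950 to 2141 higher and 881 to 2017 lower. The cause was not tested. With age as a replicate block, 3236 genes were called, *Glp1r* passed at -2.26 (edgeR FDR = 0.0402) and *Hmcn1* at -1.36 (edgeR FDR = 0.0174), and *Fyn* and *Lum* were lost. The deviations of same-age libraries correlated at 0.12, 0.05, and 0.13 over genes, and those of libraries of different ages between -0.11 and -0.02. All same-age values were thus above those of different ages. The comparison without the block was the one planned and was kept as the one reported, although the ages are real. At otherwise unchanged settings, *Glp1r* and *Hmcn1* pass with the block and not without it.

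For *Kit*-set genes measured in cells chosen without them, leaving out single libraries gave -0.63 to -0.055 for *Kit*, -0.18 to 0.047 for *Sema3c*, -2.06 to -1.55 for *Npr3*, -3.003 to -1.29 for *Glp1r*, -1.89 to -0.80 for *Hmcn1*, and 0.39 to 1.01 for *Scn7a*. With no filter on low counts *Glp1r* was at -1.73 and *Hmcn1* at -1.16, and both passed. The change in sign for *Sema3c* was to 0.047, without the 8-week WT library.

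The interaction with the mirrored rule gave 4 calls, and 10 with DESeq2, 8 without TMM, 103 with no filter, 39 at equal depth, 30 at a gap of 1, 2 at a gap of 3, 33 without barcodes of other lineages, 24 without those with most UMIs, 12 against all other capillary barcodes, 69 against these with thinned cells, and 6 to 47 without single libraries. *Gucy1a1* changed sign to 0.083 against thinned other capillary cells. The slope gave 1 call, and 81 with DESeq2, 513 with no filter, 16 with thinned cells, 3 at equal depth, 0 at a gap of 1 (edgeR, 1040 genes at an unadjusted p under 0.05), 2 at a gap of 3, 5 with stricter cell limits, 25 without barcodes of other lineages, 8 without those with most UMIs, and 4 to 129 without single libraries. Neither count is stable, and no statement on genes beyond those named rests on them.

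The mean share of the endothelium was 59.5% in WT and 20.6% in TNF-Tg. It was 55.9% and 34.4% with thinned cells, 69.6% and 30.0% at a gap of 1, 44.2% and 11.02% at a gap of 3, 57.0% and 17.9% with stricter cell limits, and 59.5% and 29.5% without the *Prnd* exclusion. Depth limits genes below about 1 CPM, which rest on few UMIs per library.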

Other observations

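Some genes of vessel identity that no comparison above describes also moved within members. *Cxcl12*, a chemokine that holds progenitor cells, was at 836, 598, and 759 CPM in WT, against 2054, 2242, and 2323 CPM in TNF-Tg and rose by 1.57 ± 0.14 (SE), edgeR FDR = 0.000395. *Jag2*, a Notch ligand, was at 64.9, 53.1, and 50.1 CPM in WT, against 109, 140.3, and 164 CPM in TNF-Tg and rose by 1.27 ± 0.18 (SE), edgeR FDR = 0.00222, while *Jag1* was at 43.7, 48.7, and 43.1 CPM in WT, against 25.8, 25.2, and 29.97 CPM in TNF-Tg and changed by -0.78 ± 0.11 (SE), edgeR FDR = 0.00226. The 2 ligands thus moved in opposite directions in each TNF-Tg library relative to any WT library. *Meis2*, a homeobox transcription factor, was at 210.0, 212, and 190.2 CPM in WT, against 119.6, 52.1, and 51.4 CPM in TNF-Tg and changed by -1.48 ± 0.29 (SE), edgeR FDR = 0.00923. *Klf2*, which responds to flow, was at 1248, 1033, and 1334 CPM in WT, against 696, 1002, and 493 CPM in TNF-Tg and changed by -0.75 ± 0.23 (SE), edgeR FDR = 0.0479. These genes were picked from the fixed lists after their values were seen.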
